A study of Homo sapiens with 4 samples.

Results

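MT-RNR1 encodes the 12S rRNA, the RNA of the small subunit of the human mitochondrial ribosome. It is named RNR1 in the gene table and runs on chromosome MT from 648 to 1601 in the files' numbering, so that a position of the rRNA is the file position less 647. The gene was taken by these coordinates from the heavy-strand file, which gave 954 bases of 16500. Of these, 568 are A or C, out of 10265 A and C positions in the file, and 386 are G or T and served as background. The study probed RNA inside isolated mitochondria of HEK-293T, a line of human embryonic kidney origin. Dimethyl sulfate (DMS) methylates unpaired A and C, and reverse transcription leaves a mismatch at the methylated base. There were 2 libraries of wild-type mitochondria and 2 of mitochondria from cells lacking LRPPRC, labelled as separate biological replicates. All 4 received 1% DMS for 5 min at 37 °C, so no library here shows the level without DMS. The labels do not say how the knockout was made or whether it is 1 clone, and the RNA of LRPPRC itself, which is a nuclear gene, was not analysed here. The depth behind each value is unknown, because the files give fractions without read counts. No base of the gene was listed at 0 in wild type, whereas 3 and 11 were in the knockout libraries.

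The 12S rRNA folds into a 5′ domain, a central domain, a 3′ major domain that forms the head of the subunit, and a 3′ minor domain that holds helix 44, with the decoding site, and helix 45. It carries few known methylated bases, among them a pair of dimethylated adenines in the loop of helix 45. LRPPRC is known for binding mitochondrial mRNAs and keeping them stable, and not as a ribosomal protein.

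Landmarks were located in the base column by short words shared among small-subunit rRNAs (GCCAGCC and CCGCGGT for the loop of helix 18, GCGTAAA for the start of the central domain, TTAGATA for the loop of helix 24, ACTCAAA for the start of the 3′ major domain, ACACCGC for that of the 3′ minor domain, AGTCGTA for the 3′ strand of the decoding site and GGAAAG for the loop of helix 45). The domain borders set in this way, at 934, 1162 and 1480, are approximate. The functional sites are shown first, because the known roles of the rRNA rest on them, 5′ to 3′ with T for U, in the files' build and on the strand of the rRNA. Capitals mark a tested A or C with a mean mismatch fraction of at least 2% in wild type.
Helix 18 loop, MT:887-908: gtgccagccaccgcggtCacac
Helix 24 loop, MT:1071-1085: tgggattagatACcc
Helix 44, 5′ strand of the decoding site, MT:1479-1496: caCacCgcccgtcACcct
Helix 44, 3′ strand of the decoding site, MT:1550-1569: aggagACAAgtcgtaaCatg
Helix 45 hairpin, MT:1574-1591: gtgtactggaaagtgcac
The next stretches, chosen after their values were seen, hold 5 of the 6 largest rises and all of the 6 largest falls of single positions after centring, each in wild type and then, with capitals by the same limit, in knockout.
Start of the gene, MT:648-699, wild type: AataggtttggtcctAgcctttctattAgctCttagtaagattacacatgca
Start of the gene, knockout: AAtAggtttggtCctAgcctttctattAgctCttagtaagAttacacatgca
3′ major domain, MT:1267-1301, wild type: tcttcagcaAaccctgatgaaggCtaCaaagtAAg
3′ major domain, same stretch, knockout: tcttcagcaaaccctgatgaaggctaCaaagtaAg
3′ major domain, MT:1333-1350, wild type: ggtgtagccCatgaggtg
3′ major domain, same stretch, knockout: ggtgtagcccatgaggtg
The start of the gene had 4 such bases in wild type against 8 in knockout, and the stretch from 1267 to 1301 had 5 against 2.

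Mismatches in the 12S rRNA fell mostly on the bases that DMS modifies. Leaving out positions whose mean over the 4 libraries was above 0.3, A and C had a mean fraction of 1.51% and 1.51% in the wild-type libraries against 1.13% and 1.16% in the knockout libraries. G and T had 0.303% and 0.282% against 0.256% and 0.258%. The ratio of A and C to G and T was 5.17 ± 0.277 against 4.45 ± 0.0686 (SD, n = 2), where, as in all pairs of values that follow, wild type is given first. The large rRNA had 6.97 ± 0.458 against 6.34 ± 0.0629, and the 12 heavy-strand mRNAs 4.29 ± 0.108 against 2.73 ± 0.0393. All 3 ratios were lower in both knockout libraries than in either wild-type one (exact permutation test, two-sided p = 0.333 each, the smallest that 2 libraries against 2 allow).

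Tested were A and C whose 4 libraries averaged between 0.002 and 0.3, limits included, which kept 484 of the 568. Of the rest, 80 were under the lower limit and 4 above the upper one. Nearest to the lower limit were 0.199% at 860, not tested, and 0.203% at 913, tested. Nearest to the upper limit were 21.8% at 1293, tested, and 32.7% at 764, set apart. The tested positions had a mean of 1.73% and 1.74% in the wild-type libraries against 1.29% and 1.33% in the knockout libraries. Both knockout libraries lay below both wild-type ones, and the means differed by -0.420 points (p = 0.333 by the exact permutation test, two-sided). A positions had 1.53% ± 0.00979 against 1.13% ± 0.0184 (SD, n = 2), and C positions 2.03% ± 0.00779 against 1.58% ± 0.0427. By this mean the gene ranked 23 of 37 in wild type and 28 of 37 in knockout.

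Few bases carried much of the signal. In wild type 114 of the 484 positions reached 2%, 24 reached 5% and 11 reached 10%, whereas 89, 20 and 6 did in knockout. The 10 highest positions held 19.5% of the summed wild-type signal and 17.1% of that in knockout. The Gini index, which is 0 when all positions are equal and nears 1 when few carry the signal, was 0.566 ± 0.00925 in wild type (n = 2), rank 2 of 37 genes, and 0.577 ± 0.00309 in knockout. That change did not pass the test (0.0106, SE 0.00624, limma adjusted p = 0.267, beside 45.9% of genes that passed). With positions above 0.1 left out, it was 0.0263 and passed (limma adjusted p = 0.0408). The large rRNA was about as uneven, with 0.555 ± 0.00416 in wild type, rank 3, and 0.613 ± 0.0129 in knockout. Its change passed (0.0578, limma adjusted p = 0.0218).

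Libraries of a group resembled each other more than those of the other group. Across the 484 positions, which share libraries and neighbouring bases, Pearson's r of log2 values was 0.993 between the wild-type libraries and 0.957 between those of the knockout. Between groups it ran from 0.790 to 0.872. The median absolute log2 difference was 0.09 within wild type, 0.22 within knockout and from 0.47 to 0.57 between groups. Over all 9910 tested heavy-strand positions it was 0.04 within wild type, 0.06 within knockout and from 0.31 to 0.32 between groups. Replicates thus agreed less closely in this gene than over the whole file.

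**Figure D1:**
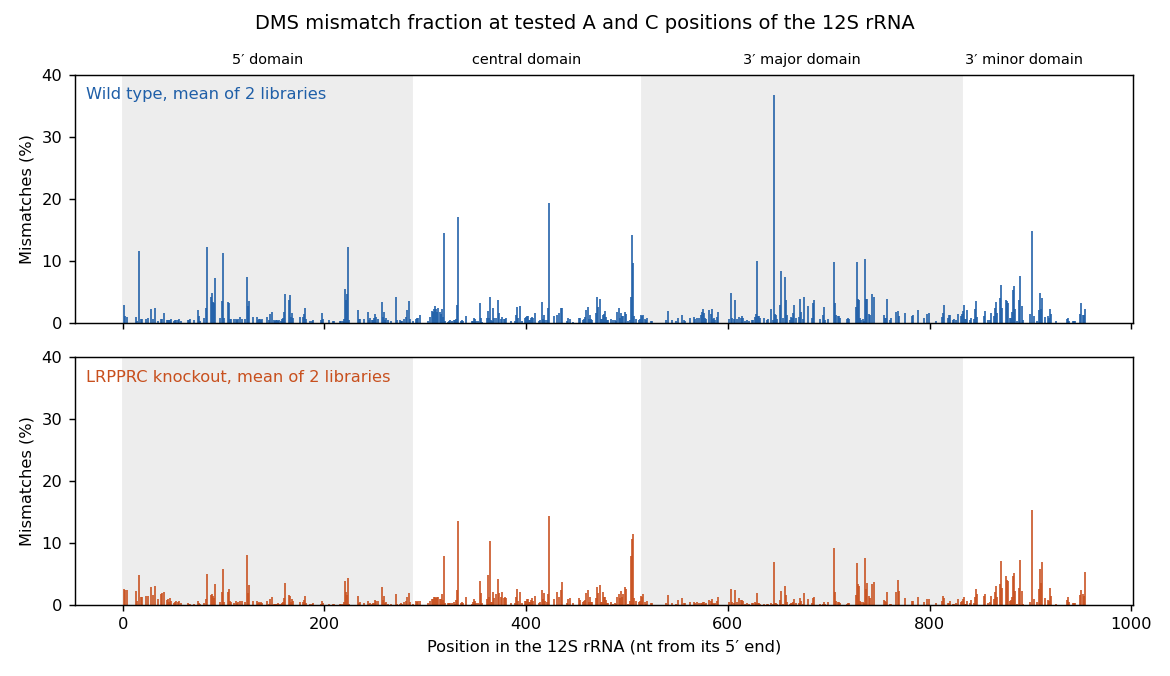
Mean mismatch fraction in percent (vertical axis) at the 484 tested A and C positions along the 12S rRNA (horizontal axis, nt from its 5′ end), for wild type and LRPPRC knockout; each value is the mean of 2 libraries. The tallest wild-type value, at rRNA position 646, is 36.7%, and the same position is 6.85% in knockout.

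The tested base with the highest wild-type fraction was the C at 1293 (rRNA 646), in the 3′ major domain. Its wild-type mean of 36.7% lay above 0.3, and it was tested because its mean over the 4 libraries was 21.8%. It had 34.0% and 39.5% in wild type against 6.82% and 6.87% in knockout. The groups lay far apart, and the opposite position of the light-strand file had 32.8% and 38.0% against 19.2% and 20.5%. The next 3 were high in both groups. The C at 1070, just before the loop of helix 24, had 19.1% and 19.5% in wild type against 14.4% and 14.4% in knockout. The C at 979 had 17.1% and 17.0%, then 14.4% and 12.7%. The A at 1548, just upstream of the 3′ strand of the decoding site, had 14.5% and 15.2%, then 16.3% and 14.4%, so that its groups overlapped. The other 6 were A or C positions that lay lower in both knockout libraries. They were the A at 966 with 14.5% ± 0.753 against 7.94% ± 0.0721 (SD, n = 2), and the A at 1152 with 14.1% ± 0.738 against 10.6% ± 1.46. In the 5′ domain they were the A at 731 with 12.2% ± 0.176 against 4.96% ± 0.351, and the C at 870 with 12.1% ± 0.248 against 4.32% ± 1.25. The same domain held the A at 663 with 11.6% ± 0.868 against 4.86% ± 0.259, and the A at 746 with 11.2% ± 0.817 against 5.79% ± 0.248. Of the 10 highest positions in wild type, 5 were also among the 10 highest in knockout. The list was chosen by wild-type level, and 78.3% of all tested heavy-strand positions were called lower uncentred. After centring, the A at 1152 changed by 0.22. The A at 966, 731, 663 and 746 and the C at 870 changed by -0.87 to -0.22.

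The base before a position went with its level. C after A had a median of 1.40% ± 0.0930 against 1.38% ± 0.0520 (SD, n = 2 libraries, 72 positions), and C after G one of 0.542% ± 0.0410 against 0.363% ± 0.0166 (36 positions). A after G had 0.996% ± 0.0562 against 0.789% ± 0.00566 (44 positions), and A after C 0.710% ± 0.00778 against 0.498% ± 0.0417 (75 positions). In both groups C was thus higher after A than after G.

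Pairing predicted from sequence alone was set against the signal. Positions with a predicted unpaired probability over 0.8 had a median of 1.09% ± 0.0145 against 0.922% ± 0.118 (208 positions, n = 2 libraries). Those under 0.2 had 0.361% ± 0.00530 against 0.265% ± 0.0244 (36 positions). Spearman's rho across the 484 positions, given as a description, was 0.284 and 0.294 in wild type against 0.241 and 0.252 in knockout. By domain it was highest in the 3′ minor domain, at 0.604 ± 0.00709 against 0.620 ± 0.0271 (62 positions). In the 5′ domain it was 0.233 ± 0.0337 against 0.0976 ± 0.000751 (141 positions). Of the 10 highest positions in wild type, 7 had a predicted unpaired probability over 0.8 and 0 had one under 0.2. Of all 484 tested positions, 208 and 36 did, so few under 0.2 were to be found in any list of 10.

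The gene as a whole was compared between groups on log2(fraction + 0.001), a scale that understates changes of low positions. Values were centred on the median of each library over all tested heavy-strand positions, since that median was 0.63 lower in knockout on the log2 scale. After centring the mean of the 12S rRNA rose by 0.24 (SE 0.06, limma adjusted p = 0.0295), beside 83.8% of 37 genes called and 59.5% that rose. Uncentred it fell by 0.39 (limma adjusted p = 0.00346), beside 73.0% called and 64.9% that fell, so the direction for the whole gene depended on the scaling. The centred change did not pass without knockout replicate 1 (limma adjusted p = 0.320) or without knockout replicate 2 (0.345). The difference from the large rRNA within a library, which no centring alters, was -0.41 ± 0.0149 against -0.33 ± 0.0291 (SD, n = 2), a change of 0.08 (exact permutation test, two-sided p = 0.333). The 3 genes nearest to the 12S rRNA in their 4 library means were TRNL2, TRNS2 and TRNT, which encode tRNAs, at Euclidean distances of 0.248, 0.601 and 0.604.

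The domains of the 12S rRNA differed in their levels between groups. The 3′ major domain had a mean fraction of 1.84% and 1.93% in wild type against 0.963% and 0.980% in knockout (143 positions). The 5′ domain had 1.53% and 1.53% in wild type against 1.02% and 1.03% in knockout (141 positions). In these domains the groups were far apart before centring. The library median over all tested heavy-strand positions was also lower in knockout, by 0.63 on the log2 scale. The central domain had 1.64% and 1.57% in wild type against 1.49% and 1.69% in knockout (138 positions). The 3′ minor domain had 2.13% and 2.13% in wild type against 2.25% and 2.05% in knockout (62 positions). In both of the latter the groups overlapped. After centring, the mean log2 value changed by 0.19 in the 5′ domain and by 0.67 in the central domain. It changed by -0.25 in the 3′ major domain and by 0.50 in the 3′ minor domain (exact permutation test, two-sided p = 0.333 each). The 5′ domain was thus lower in knockout before centring and higher after it.

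**Figure D2:**
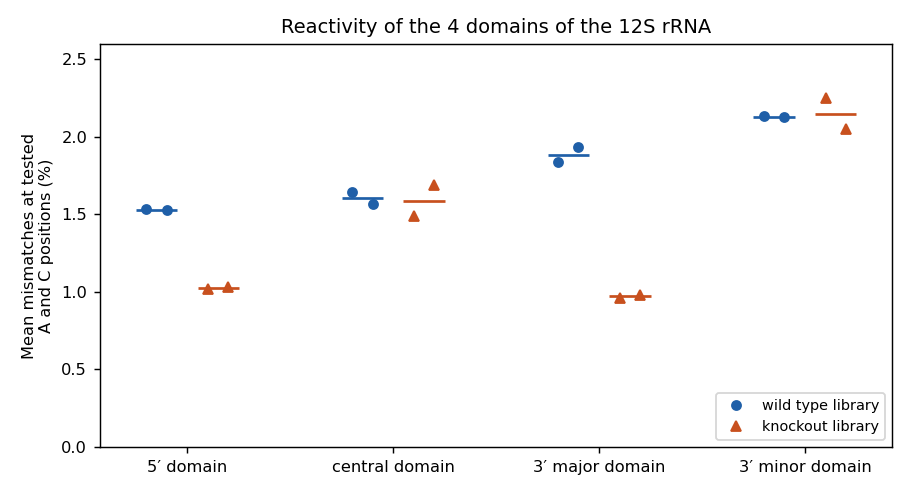
Mean mismatch fraction in percent at tested A and C positions (vertical axis) in the 4 domains of the 12S rRNA (horizontal axis); each point is 1 library and each bar the mean of 2 libraries. The 3′ major domain has means of 1.89% in wild type against 0.971% in knockout, and the 3′ minor domain 2.13% against 2.15%.

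The order of the domains within a library, which no centring alters, also differed. The mean log2 value of the 3′ major domain less that of the rest of the gene was 0.20 ± 0.0754 in wild type and -0.50 ± 0.0856 in knockout (SD, n = 2), a difference of -0.69. For the central domain it was -0.20 ± 0.0620 against 0.40 ± 0.138, a difference of 0.60. The 3′ minor domain was above the rest in both groups, by 0.49 ± 0.0179 against 0.79 ± 0.0896. The 5′ domain was below it in both, with -0.26 ± 0.0244 against -0.33 ± 0.00188. Each of the 4 differences was larger than either group's SD (exact permutation test, two-sided p = 0.333 each).

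Background bases were read in the same domains. The ratio of A and C to G and T was 6.73 ± 0.486 against 5.02 ± 0.176 in the 3′ major domain (SD, n = 2) and 4.20 ± 0.251 against 3.49 ± 0.0542 in the 5′ domain. It was 3.96 ± 0.183 against 3.58 ± 0.0777 in the central domain and 6.65 ± 0.00339 against 6.44 ± 0.00807 in the 3′ minor domain. G of the 3′ major domain had 0.269% and 0.245% in wild type against 0.154% and 0.149% in knockout. The part of the background in the domain differences was not tested.

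At single positions limma, fitted on all 9910 tested heavy-strand positions, called 287 of the 484 after centring, a share of 59.3% beside 71.5% of all. Of these, 201 rose, where 44.9% of all positions did, and 86 fell, where 26.6% did. Uncentred, 305 were called beside 83.0% of all, with 65 that rose (4.73% of all) and 240 that fell (78.3% of all). Centred on the gene's own median, 268 were called (68.0% of all), with 112 that rose (11.5%) and 156 that fell (56.5%). Calls with a log2 change of at least 1 numbered 91, or 18.8%, beside 7.53% of all positions. Groups did not overlap at 386 positions, or 79.8%, beside 87.2%. The larger spread between replicates in this gene may lower such shares, and its part was not tested. The median change was 0.25 centred and -0.38 uncentred, beside 0.13 and -0.50 over all positions. Without wild-type replicate 1 there were 189 calls, 49 of them falls, and without wild-type replicate 2 there were 184, 46 of them falls.

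The calls are given by domain, beside 44.9% of all heavy-strand positions that rose and 26.6% that fell after centring. In this fit 96 of 138 positions rose and 3 fell in the central domain, and 42 of 62 rose and 3 fell in the 3′ minor domain. In the 3′ major domain 29 of 143 rose and 56 fell, and in the 5′ domain 34 of 141 rose and 24 fell. Uncentred, 101 fell in the 3′ major domain, 70.6% beside 78.3% of all positions, so that this count does not set the domain apart. In the central domain 32 rose and 34 fell, 23.2% and 24.6%, where 4.73% of all positions rose. The uncentred medians were -0.53, 0.05, -0.76 and -0.10, from the 5′ to the 3′ minor domain.

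Along the gene the changes came in blocks. Of its 19 windows of 50 nt, limma called 15 after centring (87.9% of all 330 windows), 10 of them higher (60.3%) and 5 lower (27.6%). The number lower was 3 without wild-type replicate 2 and 3 without knockout replicate 2. Uncentred, 16 were called (92.4% of all), 3 of them higher (2.12%) and 13 lower (90.3%). Those higher on both scales ran from 651 to 700, from 1001 to 1050 and from 1551 to 1600. The 5 that were lower after centring were lower uncentred too.

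The first window, from 651 to 700, had 1.21% and 1.15% in wild type against 1.47% and 1.56% in knockout over 23 tested positions. Its mean log2 value rose by 1.39 (SE 0.10, limma adjusted p = 2.19e-05), or by 0.76 uncentred. In it 19 positions rose (beside 44.9% of all) and 1 fell, the A at 663. Its G and T had 0.199% ± 0.0356 against 0.417% ± 0.0264 (SD, n = 2). The next window, from 701 to 750, went the other way, with 2.66% and 2.81% in wild type against 1.21% and 1.26% in knockout, a change of -0.31 (limma adjusted p = 0.00432), or -0.94 uncentred. Its G and T had 0.428% ± 0.00833 against 0.185% ± 0.000786.

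The lowest block covered 3 windows of the 3′ major domain. From 1201 to 1250 the mean was 1.18% ± 0.144 against 0.559% ± 0.0308 (SD, n = 2). From 1251 to 1300 it was 2.70% ± 0.292 against 0.749% ± 0.0187, a centred change of -0.55 (SE 0.08, limma adjusted p = 0.000694). The C at 1293, with 36.7% against 6.85%, weighs heavily in the mean fraction of the 30 tested positions of this window. From 1301 to 1350 the mean was 1.94% ± 0.00778 against 0.678% ± 0.0125, a change of -0.76 (SE 0.07, limma adjusted p = 4.93e-05). This last was the lowest of the 19 windows on both scales, and 20 of its 24 positions fell (beside 26.6% of all) while 0 rose. Among them, the A at 1338 and the C at 1341 passed the lower limit only through wild type. G and T had 0.223% ± 0.00275 against 0.195% ± 0.0136 from 1251 to 1300, and 0.250% ± 0.00786 against 0.0959% ± 0.0104 from 1301 to 1350.

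Over the 19 windows the log2 ratio of knockout to wild type at A and C went with that at G and T (Pearson's r = 0.717, Spearman's rho = 0.793, a description over windows that share libraries and reads). Of the 15 windows lower at A and C, 12 were lower at G and T too.

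**Figure D3:**
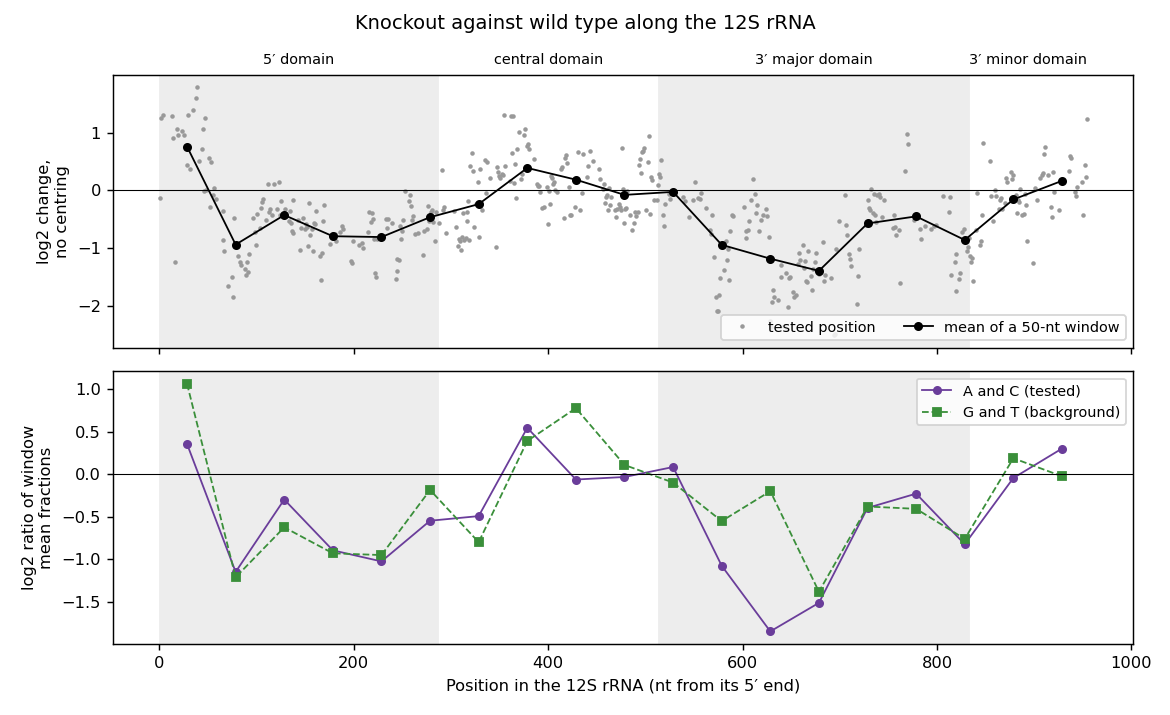
Knockout against wild type along the 12S rRNA (horizontal axis, nt from its 5′ end): log2 change without centring at tested positions and in 50-nt windows, and log2 ratio of window mean fractions at A and C and at G and T (vertical axes). The window mean is 0.76 in the first window and -1.39 in the window of rRNA positions 654 to 703.

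The 6 largest rises and 6 largest falls were taken among positions called after centring whose groups did not overlap. Separation of the groups was thus a condition of the choice. Of the 6 positions that rose most, 5 lay in the first 39 nt of the rRNA. The A at 686 had 0.611% and 0.394% in wild type against 1.76% and 2.12% in knockout, and rose by 2.41 on the log2 scale (SE 0.21, limma adjusted p = 0.000807). The A at 685 had 0.621% and 0.413%, then 1.72% and 1.76%, and the A at 682 had 0.388% and 0.263%, then 0.976% and 1.03%. The A at 651 had 1.10% and 0.798%, then 2.38% and 2.55%, and the C at 677 had 0.715% and 0.489%, then 1.53% and 1.69%. All of these were low in both wild-type libraries and well above them in both knockout libraries. The sixth was the C at 1002 in the central domain, with 0.794% and 0.664%, then 1.71% and 2.18%. Uncentred, the 6 rose by 1.30 to 1.78.

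The 6 positions that fell most all lay in the 3′ major domain, within the stretches printed above. The C at 1341 had 1.13% and 1.17% in wild type against 0.138% and 0.105% in knockout, a centred log2 change of -1.87 (SE 0.13, limma adjusted p = 0.000451). The C at 1342 beside it had 2.47% and 2.58%, then 0.437% and 0.314%. The C at 1293, the highest tested base in wild type, was 5.37-fold lower in knockout (-1.77, SE 0.10, limma adjusted p = 0.000328). These values stood far below wild type in both knockout libraries. The A at 1276 had 8.77% and 11.1%, then 1.83% and 1.84%, and the A at 1275 had 1.31% and 1.55%, then 0.214% and 0.227%. The C at 1290 had 2.08% and 2.26%, then 0.348% and 0.350%. All 12 kept their direction and their call uncentred and without any 1 library, and in the other alternatives wherever they were tested. A limit of 0.01 left the A at 682, the A at 1275 and the C at 1341 untested, one of 0.1 the C at 1293, and fits of A or C alone the other base. As the 12 were chosen for large called changes, their keeping the call is a description. Over the stretch from 1267 to 1301, 16 of 20 tested positions fell and 0 rose after centring, and 17 fell uncentred, where 26.6% and 78.3% of all positions fell. The stretch was drawn around the largest falls, so its counts are a description. Several of its positions, among them the C at 1279 and the A at 1283, passed the lower limit only through wild type. Their knockout means were 0.132% and 0.119%.

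**Figure D4:**
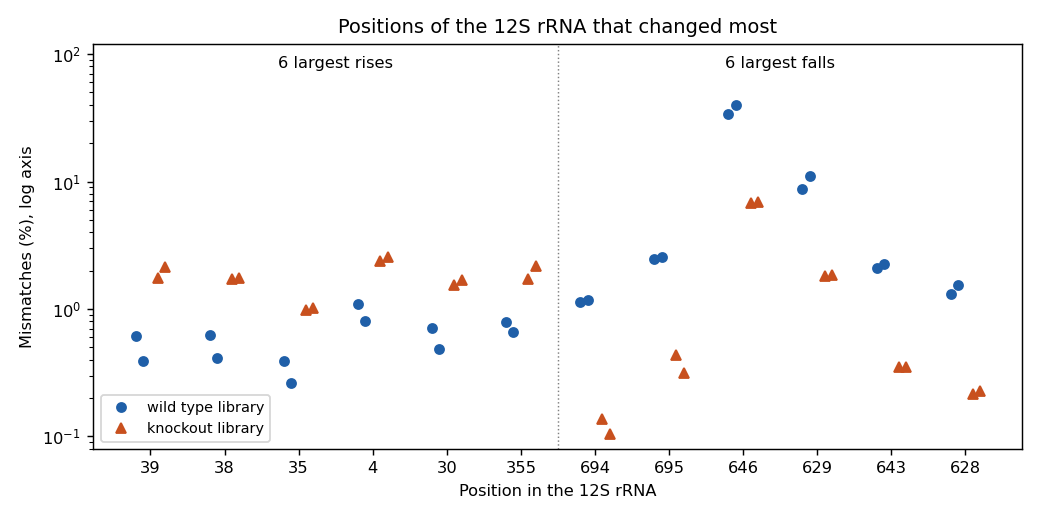
Mismatch fraction in percent (vertical log axis) in each of the 4 libraries at the 6 positions that rose most and the 6 that fell most (horizontal axis, position in the 12S rRNA). The positions were chosen among calls whose groups did not overlap after centring. Position 646 is at 34.0% and 39.5% in wild type and at 6.82% and 6.87% in knockout, and no position has overlapping groups.

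The decoding site, where the ribosome reads the codon, had unlike values on its strands. The 5′ strand of helix 44 had 1.46% ± 0.0122 against 0.889% ± 0.131 over 12 tested positions (SD, n = 2). There 2 rose and 2 fell after centring, and 1 rose and 9 fell uncentred, a share of falls near the 78.3% of all positions. The 3′ strand had 1.87% ± 0.0914 against 2.41% ± 0.129 over 11 positions. There 10 rose and 0 fell after centring, and 5 rose and 0 fell uncentred, where 44.9% and 4.73% of all positions rose. In the whole 3′ minor domain, 67.7% rose after centring and 19.4% uncentred. The A at 1557 and the A at 1558 correspond to the adenines that inspect the codon in bacterial ribosomes. The first had 2.40% and 1.98% in wild type against 3.89% and 3.00% in knockout, and the second 4.41% and 3.62%, then 7.50% and 6.18%. Both rose, by 1.25 and 1.38 after centring (limma adjusted p = 0.00210 and 0.00105) and by 0.62 and 0.75 uncentred. The C at 1556, next to them, had 4.76% ± 0.0431 against 5.85% ± 0.296.

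The loops of helices 18 and 24 line the paths of the messenger and transfer RNA in the body of the subunit. The loop of helix 18 had 1.01% ± 0.00677 against 0.682% ± 0.107 over 14 positions (SD, n = 2), with 2 that rose and 2 that fell after centring, and 10 that fell uncentred, again near the 78.3% of all positions. The loop of helix 24 had 1.73% ± 0.0619 against 2.06% ± 0.369 over 5 positions, with 4 that rose after centring (44.9% of all) and 2 uncentred (4.73%). The latter were the A at 1078, with 1.29% ± 0.0912 against 2.13% ± 0.588, and the C at 1083, with 2.34% ± 0.127 against 3.72% ± 0.745. In the whole central domain, which holds this loop, 69.6% of positions rose after centring and 23.2% uncentred.

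None of the 5 known methylated bases reached 2% in any library. The 5-methyluridine, made by TRMT2B in the loop of helix 24, is rRNA position 429, the T at 1076, and had 0.222% and 0.188% in wild type against 0.207% and 0.285% in knockout. The N4-methylcytidine, made by METTL15 in helix 44, is position 839, the C at 1486, and had 0.182% and 0.148%, then 0.134% and 0.295%. The 5-methylcytidine, made by NSUN4 in helix 44, is position 841, the C at 1488, and had 0.817% and 0.707%, then 0.824% and 0.644%. At all 3 the groups overlapped before centring. After centring the 5-methylcytidine rose by 0.58 (limma adjusted p = 0.0217), whereas uncentred it did not pass (-0.05, limma adjusted p = 0.753). The 5-methyluridine and the N4-methylcytidine were outside the limma fit. The dimethylated adenines, made by TFB1M, are positions 936 and 937, at 1583 and 1584. The first had 0.519% and 0.550%, then 0.553% and 0.887%, and the second 0.819% and 0.720%, then 1.22% and 1.20%. By wild-type mean, the 5-methyluridine was above 67.8% of the gene's T, the N4-methylcytidine above 14.6% of its C and the 5-methylcytidine above 57.7%. The adenines were above 34.9% and 51.1% of its A. The N4-methylcytidine thus stood low for its base, and the others ranked nearer the middle. The second adenine rose by 1.22 after centring (SE 0.09, limma adjusted p = 0.000574) and by 0.59 uncentred (0.00310). The first adenine rose by 0.97 after centring (limma adjusted p = 0.0154) and did not pass uncentred (0.34, adjusted p = 0.207). Its difference of 0.185 percentage points was 0.0185 without knockout replicate 2 and 0.352 without knockout replicate 1. In the stem of this hairpin, 7 of 7 pairs were complementary with G-U included. Its A and C had 0.135% ± 0.00530 against 0.124% ± 0.0559 on the 5′ strand (SD, n = 2 libraries, 2 positions, both under the lower limit). On the 3′ strand they had 0.259% ± 0.00813 against 0.302% ± 0.00548 (4 positions). The loop stood higher, at 0.652% ± 0.0240 against 0.964% ± 0.109, but its 2 A and C positions are the dimethylated adenines given above.

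Above the limit of 0.3 were 4 A positions, none of them a known methylated base. The A at 750 (rRNA 103) had 87.8% and 93.3% in wild type against 43.4% and 39.4% in knockout. The A at 1438 (rRNA 791) had 90.2% and 93.8%, then 57.1% and 40.6%. The reference sequence is known to hold rare bases at both, and the files do not say which base was read. The A at 1168 (rRNA 521), in the 3′ major domain, had 64.7% and 68.3%, then 58.5% and 59.6%, and the A at 764 (rRNA 117) had 39.1% and 42.1%, then 25.4% and 24.1%. At all 4 both knockout libraries lay below both wild-type libraries (exact permutation test, two-sided p = 0.333 each). The opposite light-strand positions had means of 84.3% against 30.3% at 1438, and 58.2% against 35.0% at 1168.

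Elsewhere in the heavy-strand file, 24 positions had a wild-type mean above 70%, the range in which 750 and 1438 lie. Their knockout means ran from 79.5% to 98.5%, and the largest decrease among them was a change of -5.40 percentage points. Below that range, positions of the large rRNA above 0.3 also differed. The A at 2617 had 64.3% against 33.5%, a change of -30.7 points, and the C at 1944 42.7% against 31.7%. The C at 2061 went the other way, with 31.4% against 37.7%, and at 3189 and 3196 the groups overlapped. At 750 and 1438 the changes were -49.1 and -43.2 points. Both lie in windows whose A and C were lower uncentred, as were 90.3% of all 330 windows. After centring the window of 750 was lower (-0.31, limma adjusted p = 0.00432) and that of 1438 higher (0.18, limma adjusted p = 0.0222). How these positions relate to the window changes was not tested.

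**Figure D5:**
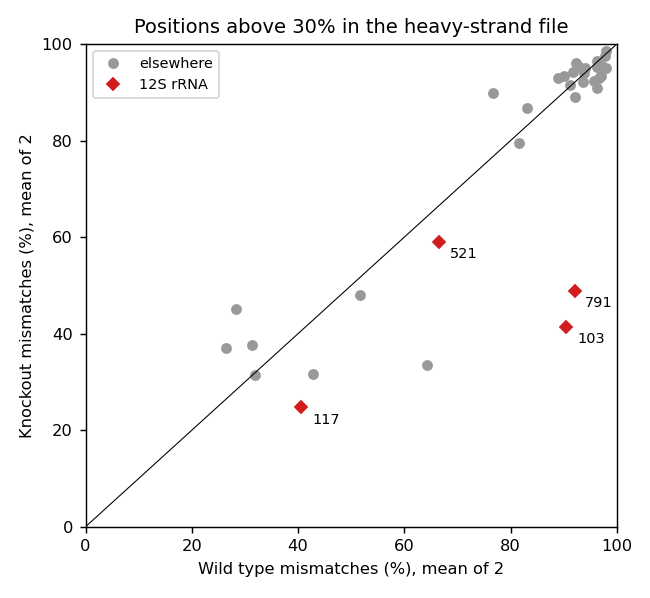
Positions of the heavy-strand file with a mean above 30% over the 4 libraries, wild-type mean in percent (horizontal axis) against knockout mean (vertical axis), each the mean of 2 libraries. The 12S rRNA positions 103 and 791 are at 90.5% and 92.0% in wild type and at 41.4% and 48.9% in knockout, below the other positions of similar wild-type level.

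Some G and T positions, chosen after their values were seen, stood above the background. The T at 1021 was the highest, with 7.20% and 6.84% in wild type against 8.01% and 8.43% in knockout. The G at 762 had 4.79% and 5.13%, then 2.70% and 1.95%, and deletions of 5.61% and 6.54%, then 1.75% and 1.99%. The G at 988 had 2.79% and 2.67%, then 0.265% and 0.192%, and was 11.9-fold lower in knockout. The highest deletion fraction of the gene was at the A at 1152, with 6.35% and 6.60%, then 4.40% and 5.16%.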

How the data were processed

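The authors deposited, per the file headers, 1 file per strand and library with the fraction of mismatches, the fraction of mismatches with deletions, and the base at each position. Per the design text of the series, reads were mapped against the mitochondrial genome. Cutadapt and Bowtie2 are named in the submitters' processing notes. Versions, read filters and a coverage minimum are not given in the sources used here. The depth is unknown, so no interval or limit for a 0 was computed.

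The mismatch fractions of the heavy-strand file were used as deposited. Genes came from the GRCh38.p14 table. Positions, 50-nt windows (at least 8 tested positions) and gene means (at least 10, light-strand genes from their own file) were tested by limma 3.58.1 under R 4.3.3 (lmFit, eBayes with a trend, none for the Gini index), two-sided, with Benjamini-Hochberg adjustment over the whole table and a threshold of 0.05. The unit of every test was the library. The fit was tested on simulated data with known changes. Single values were compared by exact permutation. Pairing came from RNAplfold 2.7.2 (window 240 nt, span 160 nt). Python 3.11.15 and scipy 1.17.1 did the rest.

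Named positions were the methylated bases and those above 0.3, the 10 highest in wild type, the 6 largest rises and falls among calls without overlap, and the landmarks. The G and T positions named were chosen after their values were seen. The gene and all lists were chosen with earlier results of these data known. The libraries were not treated as paired by replicate number, and a check is given with the alternatives.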

Additional observations from a re-analysis of the deposited data

How the results depend on the processing

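Uncentred, 65 positions rose and 240 fell, the gene mean changed by -0.39, and 3 windows were higher and 13 lower. The log2 changes of the 5′ and 3′ minor domains were then -0.44 and -0.13, and those of the C at 979, the C at 1070 and the A at 1152 -0.33, -0.42 and -0.41. Centred on the gene's own median, 112 positions rose, 156 fell, 9 windows were lower, the gene mean changed by -0.13, the 5′ domain by -0.18, and the same 3 positions by -0.0723, -0.16 and -0.15. With quantile normalization the gene mean changed by 0.0311, the 5′ domain by -0.0262 and the C at 1070 by -0.0115. With a pseudocount of 0.01, 320 positions rose, 48 fell, 2 windows were lower and the 3′ major domain changed by 0.0375. With 0.0001 the gene mean changed by 0.18 (limma adjusted p = 0.0965). Raising the lower limit to 0.01 left 144 called positions, 103 up and 41 down, 3 lower windows and a Gini change of -0.0176. At most 0.1 gave a Gini change of 0.0263, and no lower limit gave 2 lower windows. A alone gave 158 called positions, 95 up, 8 lower windows and a gene mean change of 0.0945. C alone gave 131 called positions, 106 up and 25 down, and 9 called windows with 1 lower. The rho with predicted pairing, wild type then knockout, was 0.240 and 0.208 with a shorter window, 0.245 and 0.205 for A, 0.388 and 0.339 for C, and 0.366 and 0.297 with the gene folded whole, and 0.281 in wild type with deletions counted. For all of these the cause was not tested.

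Leaving out 1 library at a time gave 184 to 345 called positions, 138 to 232 up and 46 to 113 down, 10 to 18 called windows, 7 to 11 higher and 3 to 7 lower, and a gene mean change of 0.221 to 0.251. The Gini change ran from 0.00403 to 0.0171. In percentage points, the difference ran from 0.002 to 0.0800 at the 5-methyluridine, -0.0310 to 0.130 at the N4-methylcytidine, -0.118 to 0.0620 at the 5-methylcytidine, and 0.0185 to 0.352 and 0.389 to 0.488 at the dimethylated adenines. With 1 library left in a group, it is assumed to vary like the other group. Libraries of the same replicate number did not deviate together after centring (correlation 0.000704 over all tested positions and -0.102 over the gene's). With 2 libraries a group, and shared shifts removed by the centring, this cannot show whether libraries were prepared in pairs. The labels do not say. With the replicate block 278 positions were called, and the gene mean change of 0.236 did not pass (limma adjusted p = 0.235).

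The limits are 2 libraries a group, unknown depth, no library without DMS, and predicted pairing in place of a known structure. Over all alternatives, 257 values of comparisons kept their direction and side of the threshold or moved little, while 38 moved further, 11 reversed, 6 lost the call and 1 gained it. For single positions these were 287 kept, 7 reversed, 9 that lost the call and 3 that gained it. Many of the 257 were compared by exact permutation, where p cannot fall under 0.333, so that only a reversal of direction could show. Differences within a library cannot change with centring on a median, so their being kept there carries no information.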
